A study of Mus musculus with 21 samples.

Results

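The genes described here are 9 genes of the p53 and growth arrest response, Cdkn1a, Trp53, Mdm2, Ccng1, Gadd45a, Gadd45b, Gadd45g, Bax and Bbc3. They were taken by gene symbol from a table of 22136 genes, and all 9 passed the filter on low counts that left 12100 genes to test. Their messenger RNA was measured by bulk RNA sequencing of left ventricle from 21 wild type male C57BL/6 mice, 3 in each of 7 groups, operated on at 8 weeks of age and sampled 8 weeks after surgery. In 4 groups the ascending aorta was banded (AB), which loads the ventricle with pressure, and low-level vagus nerve stimulation (LL-VNS) at 4 µA and 2 Hz was delivered to the left cervical vagus by cuff electrode, powered by an implanted biodegradable generator. AB_LLVNS20min_1w, AB_LLVNS20min_2w and AB_LLVNS20min_4w had 20 min a day from weeks 1, 2 and 4 for 7, 6 and 4 weeks, and AB_LLVNS10min_1w had 10 min a day from week 1 for 7 weeks. AB_Implant mice were banded and carried the device, placed at week 1 and never activated. AB mice were banded without a device, and Sham mice had the thoracotomy without ligation. The labels call each library a biological replicate, so p-values describe the spread between these mice, and in tissue RNA fewer cells of a type and less RNA per cell cannot be told apart.

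Trp53 encodes p53, a transcription factor that is stabilised by DNA damage and other stress and that switches on genes for arrest, repair and cell death. Mdm2 encodes the ubiquitin ligase that marks p53 for degradation and is itself a p53 target, which closes a feedback loop, and Ccng1 (cyclin G1) is a p53 target that acts on this loop. Cdkn1a encodes p21, which blocks cyclin-dependent kinases and halts the cell cycle; it answers to p53 but also to several other stress-induced factors. The GADD45 proteins bind p21, PCNA and the kinase MEKK4, and Bax and Bbc3 (PUMA) belong to the BCL2 family that opens the mitochondrial outer membrane in apoptosis. Adult cardiomyocytes rarely divide, and p21 is among the inhibitors known to hold them out of the cycle.

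Promoter sequences are shown for Cdkn1a, the member whose level differed most between groups, and for the feedback pair Mdm2 and Ccng1, whose levels moved together across libraries. Each is the 250 bases before an annotated start, 5′ to 3′ on the gene's strand, from RefSeq on GRCm38.p6, with matches to the p53 decamer in capitals. The Cdkn1a windows lie at chr17:29090729-29090978 and chr17:29093519-29093768, both on the plus strand, before starts that are 2790 bases apart. The Mdm2 window is chr10:117710759-117711008 and the Ccng1 window chr11:40755287-40755536, both on the minus strand.
Cdkn1a upstream start: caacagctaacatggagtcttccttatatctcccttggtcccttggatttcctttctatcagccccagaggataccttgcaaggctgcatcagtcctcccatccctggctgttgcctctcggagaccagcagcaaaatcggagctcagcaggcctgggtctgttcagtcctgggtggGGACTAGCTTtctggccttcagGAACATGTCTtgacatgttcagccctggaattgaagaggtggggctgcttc
Cdkn1a downstream start: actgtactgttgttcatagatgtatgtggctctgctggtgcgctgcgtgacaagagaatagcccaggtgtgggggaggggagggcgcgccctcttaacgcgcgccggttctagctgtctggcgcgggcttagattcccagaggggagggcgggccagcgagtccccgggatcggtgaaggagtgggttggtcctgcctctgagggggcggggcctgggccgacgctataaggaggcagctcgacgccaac
Mdm2: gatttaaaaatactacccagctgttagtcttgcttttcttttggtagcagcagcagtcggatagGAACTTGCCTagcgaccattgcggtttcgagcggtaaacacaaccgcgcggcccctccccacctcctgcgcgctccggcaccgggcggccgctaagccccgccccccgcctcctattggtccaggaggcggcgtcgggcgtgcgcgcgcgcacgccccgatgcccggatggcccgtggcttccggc
Ccng1: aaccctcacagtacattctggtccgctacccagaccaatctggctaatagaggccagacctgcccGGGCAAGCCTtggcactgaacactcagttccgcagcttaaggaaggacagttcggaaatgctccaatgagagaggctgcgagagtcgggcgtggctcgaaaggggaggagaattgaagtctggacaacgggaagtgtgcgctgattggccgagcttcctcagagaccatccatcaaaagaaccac
The decamer occurs in the upstream Cdkn1a window 73 and 51 bases before the start and not in the downstream window. It begins 186 bases before the Mdm2 start and 185 bases before the Ccng1 start. Across the 12 RefSeq windows of the 9 genes, 6 genes had a match, with Trp53, Gadd45a and Bax as the others, against 7.13% of all 32851 promoter windows searched on both strands. The windows of Gadd45b, Gadd45g and Bbc3 did not contain these letters. The GC box GGGCGG was present in the downstream Cdkn1a window and in the Mdm2 window, and in 32.7% of all windows. A match describes letters and was not tested as a binding site.

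Library totals ran from 11577509 to 19414865 counts, and levels below are CPM, counts scaled to a common library size with TMM factors. The 7 cardiomyocyte markers summed to 42652 to 82453 CPM in all 21 libraries, as the tissue label says. The dependence of counts on transcript length varied among libraries and is given below as a length slope. The 3 libraries with the highest slopes were AB_LLVNS20min_1w replicate 2 (0.428), AB_LLVNS20min_2w replicate 1 (0.444) and AB_LLVNS10min_1w replicate 2 (0.420). The AB_LLVNS20min_4w libraries were all low, from -0.305 to -0.253, and AB_LLVNS20min_2w replicate 2 (-0.288) and AB replicate 2 (-0.275) lay within that range. The AB_Implant libraries lay between 0.0402 and 0.250. Mitochondrial genes took 34.4% to 55.3% of the counts.

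Cdkn1a (ENSMUSG00000023067, chr17:29090976-29100727, plus strand, 3553 bases of exon) had its lowest group mean under 20 min of stimulation from week 1 and its highest in banded mice with the inactive device. It stood at 5.94, 3.80 and 3.02 CPM in the AB_LLVNS20min_1w libraries. In AB_LLVNS20min_2w it stood at 16.1, 22.0 and 17.2 CPM. In AB_LLVNS20min_4w it stood at 21.2, 5.32 and 2.49 CPM. All week 1 start libraries lay below all week 2 start libraries, as for 2.91% of genes. In the week 4 group replicate 1 lay within the week 2 range, and the other libraries lay below the highest week 1 library. AB_LLVNS10min_1w libraries had 8.54, 21.4 and 15.2 CPM. AB_Implant libraries had 61.7, 17.5 and 48.7 CPM, against 8.50, 6.61 and 6.79 CPM in AB libraries. Sham libraries had 29.7, 26.0 and 8.07 CPM. AB_Implant replicates 1 and 3 exceeded every other library, whereas AB_Implant replicate 2 fell within the range of AB_LLVNS20min_2w.

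By mean, the order of Cdkn1a was AB_Implant (42.7 ± 22.7 CPM, SD, n = 3 in each group), Sham (21.3 ± 11.6), AB_LLVNS20min_2w (18.4 ± 3.13), AB_LLVNS10min_1w (15.0 ± 6.43), AB_LLVNS20min_4w (9.67 ± 10.1), AB (7.30 ± 1.05) and AB_LLVNS20min_1w (4.25 ± 1.51). Each group overlapped the next in this order except AB_LLVNS20min_1w, whose libraries all lay below those of AB. The coefficient of variation within a group ran from 14.3% in AB to 104% in AB_LLVNS20min_4w.

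**Figure D1:**
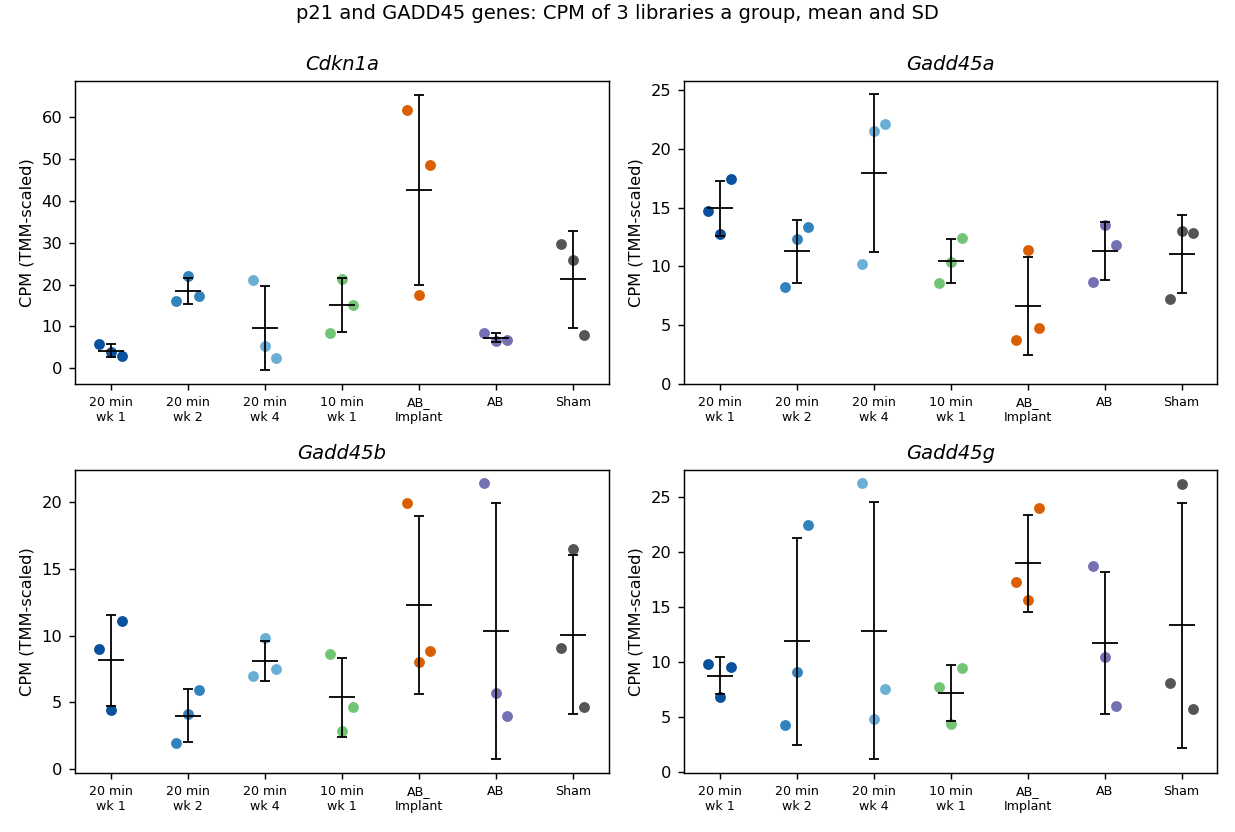
Levels of Cdkn1a, Gadd45a, Gadd45b and Gadd45g (TMM-scaled CPM, vertical axes starting at or near 0) in the 7 groups along the horizontal axis; each dot is a library, the horizontal bar the mean and the error bar the SD of 3 libraries. "20 min wk 1" stands for AB_LLVNS20min_1w and so on. The 2 highest Cdkn1a dots, 61.7 and 48.7 CPM, are AB_Implant libraries, and the lowest 2 Gadd45a dots, 3.73 and 4.72 CPM, belong to the same group.

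Each of the 9 genes was tested in 14 contrasts, and 1 of these 126 tests passed a Benjamini-Hochberg adjusted p under 0.05 over all genes in edgeR's quasi-likelihood test. An unadjusted p under 0.05 was found in 17 of them (13.5%), beside 7.69% over all genes and the same contrasts. Most of these were tests of Cdkn1a, in contrasts that share libraries. DESeq2 called 4, of Cdkn1a and Gadd45a (3.2% of 125 tests, beside 0.959% over all genes). Cdkn1a was lower in AB_LLVNS20min_1w than in AB_Implant, with a log2 fold change of -3.31 ± 0.66 (SE; edgeR adjusted p = 0.0274), and all 3 stimulated libraries lay below all 3 AB_Implant libraries. In that contrast 0.463% of the 12100 genes were called, 0.281% as lower, and groups that did not overlap with the stimulated libraries lower were found for 6.69% of genes. Of the other members, 2 had positive and 6 negative fold changes there, and the median over the 9 was -0.24 beside 0.05 over all genes tested.

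This call depended on single libraries. It was lost without AB_Implant replicate 1 or 3 and without any 1 of the AB_LLVNS20min_1w libraries, with log2 fold changes between -3.68 and -2.95 and edgeR adjusted p between 0.0141 and 0.173 over the 6 fits that leave out a library. With these groups fitted alone the value was -3.31 and the adjusted p 0.0763. With the length slope as a covariate Cdkn1a was at -3.28 (adjusted p = 0.00344), and without the 3 libraries of the highest slope at -3.17 (adjusted p = 0.0391).

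Cdkn1a also lay lower in the other stimulated groups than in AB_Implant, without passing the test. The log2 fold change was -1.22 ± 0.60 for AB_LLVNS20min_2w (edgeR adjusted p = 0.938; 0.174% of genes called). For AB_LLVNS20min_4w it was -2.15 ± 0.63 (adjusted p = 0.127; 0.322% called). For AB_LLVNS10min_1w it was -1.499 ± 0.61 (adjusted p = 0.580; 0.157% called). These comparisons share the AB_Implant libraries, and in all 3 the groups overlapped.

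Set against AB, the same stimulated groups gave fold changes of either sign. AB_LLVNS20min_1w was at -0.77 ± 0.63 (edgeR adjusted p = 0.974; 0.289% of genes called), with no overlap, where 4.17% of genes showed the same pattern. AB_LLVNS20min_2w was at 1.33 ± 0.62 (adjusted p = 1.00; 0.107% called), again with no overlap and with the stimulated libraries higher, as for 2.99% of genes. AB_LLVNS20min_4w was at 0.40 ± 0.62 (adjusted p = 0.834, 0.149% called), with overlap. AB_LLVNS10min_1w was at 1.05 ± 0.61 (adjusted p = 0.874, 0.0496% called), with the stimulated libraries higher without overlap, as for 4.12% of genes. Its lowest library (8.54 CPM) lay just above the highest AB library (8.50 CPM). Averaged over the 4 stimulated groups, Cdkn1a stood at -0.77 ± 0.36 against AB_Implant and AB averaged (adjusted p = 0.986; 0.438% called) and at -1.04 ± 0.45 against Sham (adjusted p = 0.511; 0.355% called).

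Between the 2 unstimulated banded groups Cdkn1a stood at a log2 fold change of 2.55 ± 0.64 in AB_Implant against AB, and the libraries did not overlap, as for 9.11% of genes in that direction. The edgeR adjusted p was 0.305, in a contrast with 0% of genes called and 1 member, Cdkn1a, at an unadjusted p under 0.05, beside 9.08% of all genes; DESeq2 called it (adjusted p = 0.0139). AB_Implant against Sham gave 1.01 ± 0.60 (adjusted p = 0.677; 0.281% called). AB against Sham gave -1.54 ± 0.62 (adjusted p = 0.836; 0% called; 1 member, Cdkn1a, at an unadjusted p under 0.05, beside 4.99% of all genes, and 0 by DESeq2), with AB replicate 1 just above Sham replicate 3.

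Session length and start week were compared among stimulated mice alone. At a week 1 start, Cdkn1a lay lower with 20 min than with 10 min a day in every library, at -1.81 ± 0.63 (edgeR adjusted p = 0.717), in a contrast with 0.0992% of genes called and this pattern in 3.99%. Over the 3 start weeks at 20 min the edgeR F test gave an adjusted p = 0.517 for Cdkn1a, with 0% of genes called. It was the 1 member at an unadjusted p under 0.05 there, beside 9.25% of all genes, and DESeq2 called 0 members. Over all 7 groups the edgeR F test gave an adjusted p = 0.104 for Cdkn1a, with 0.537% of genes called, and DESeq2 called Cdkn1a there (adjusted p = 0.000174).

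**Figure D2:**
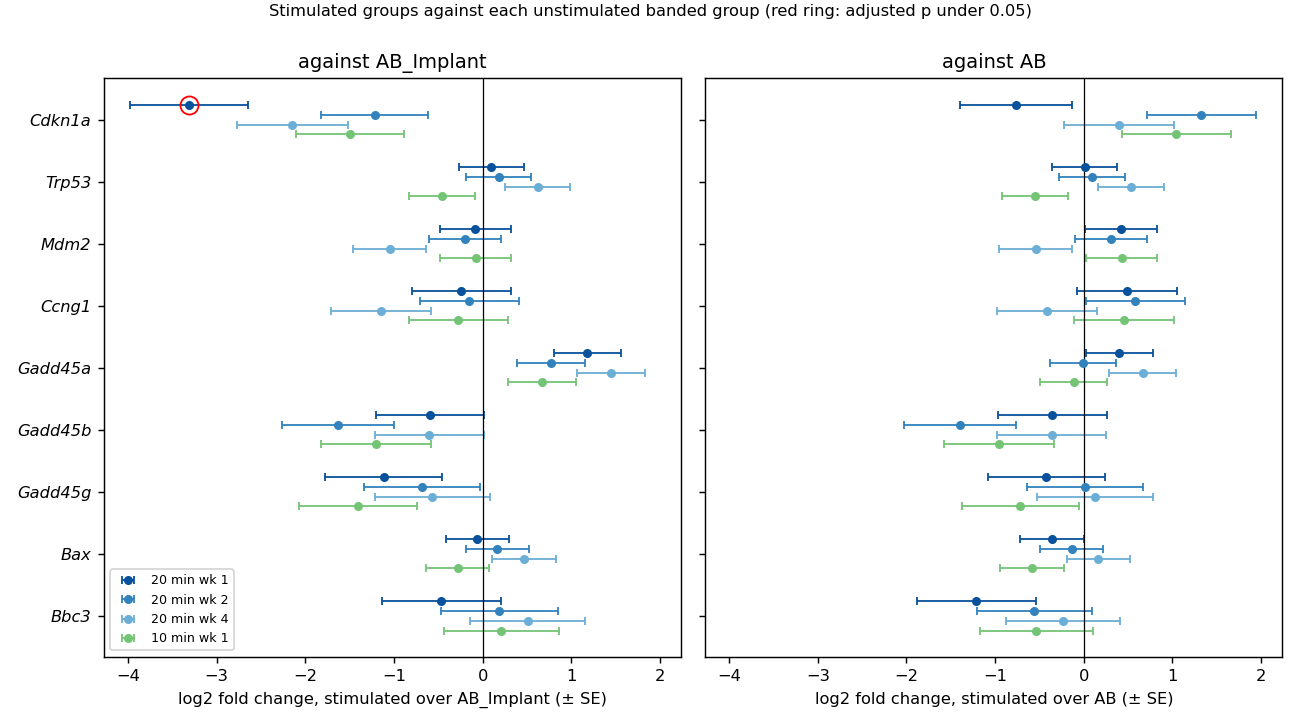
Log2 fold change of the 9 genes (rows) in each stimulated group against AB_Implant (left) and against AB (right); points are edgeR estimates, bars are standard errors, and a red ring marks an adjusted p under 0.05. The single ringed point is Cdkn1a in AB_LLVNS20min_1w against AB_Implant at -3.31. Gadd45a lies to the right of 0 in all 4 stimulated groups against AB_Implant, from 0.67 to 1.45.

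Of 11 lists of cell type markers, only the hepatocyte list had genes called in AB_LLVNS20min_1w against AB_Implant, and adipocyte markers did not pass the filter. Without calls, the 5 fibroblast markers were all lower there (median log2 fold change -0.56). All neutrophil (4, median 1.46), red blood cell (5, 1.08) and smooth muscle and pericyte (4, 0.49) markers were higher. The cardiomyocyte, endothelial and macrophage lists had both signs. The 6 hepatocyte markers summed to 16.9 to 106 CPM in the 12 stimulated libraries and to 0.378 to 2.96 CPM in the 9 others; 4 of 6 were called higher in AB_LLVNS20min_1w than in AB_Implant, where Fabp1, Cyp3a11 and Serpina1a were at 0 counts. The 5 markers of dividing cells summed to 5.95 to 9.40 CPM in AB_LLVNS20min_1w, 8.62 to 17.8 CPM in AB_Implant, 2.96 to 4.80 CPM in AB and 2.03 to 5.41 CPM in Sham, with 0 of the 3 tested called in AB_LLVNS20min_1w against AB_Implant. The 4 atrial markers, which include the load-induced gene Nppa, summed to 277 to 1037 CPM in AB_LLVNS20min_1w and 1830 to 5404 CPM in AB_Implant, with 0 called. The part of these in the Cdkn1a and Gadd45a values was not tested.

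Gadd45a (ENSMUSG00000036390, chr6:67035096-67037457, minus strand, 1764 bases of exon), the GADD45 gene that is a classical p53 target, ran opposite to Cdkn1a. It stood at 14.7, 12.8 and 17.4 CPM in AB_LLVNS20min_1w, at 8.22, 12.3 and 13.3 CPM in AB_LLVNS20min_2w and at 10.2, 21.5 and 22.1 CPM in AB_LLVNS20min_4w. AB_LLVNS10min_1w libraries had 8.62, 10.4 and 12.4 CPM. AB_Implant libraries had 3.73, 11.4 and 4.72 CPM, AB libraries 8.64, 13.5 and 11.9 CPM and Sham libraries 7.26, 13.1 and 12.9 CPM. The AB_Implant libraries with the highest Cdkn1a were those with the lowest Gadd45a, and AB_Implant replicate 2 lay among the other groups for both genes. By mean the order was AB_LLVNS20min_4w (18.0 CPM), AB_LLVNS20min_1w (15.0), AB (11.3), AB_LLVNS20min_2w (11.3), Sham (11.1), AB_LLVNS10min_1w (10.5) and AB_Implant (6.62), and every group overlapped the next.

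Gadd45a stood higher in AB_LLVNS20min_1w than in AB_Implant without overlap, as for 5.76% of genes, at a log2 fold change of 1.18 ± 0.38 (edgeR adjusted p = 0.267). In AB_LLVNS20min_4w against AB_Implant it was at 1.45 ± 0.38 (edgeR adjusted p = 0.112; DESeq2 adjusted p = 0.0171), with overlap. Without AB_Implant replicate 2 it passed edgeR in both, at 1.82 (adjusted p = 0.0280) and 2.08 (adjusted p = 0.0215). Averaged over the 4 stimulated groups, Gadd45a stood at 0.63 ± 0.24 against AB_Implant and AB averaged (edgeR adjusted p = 0.831).

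Over the 21 libraries the log2 levels of Cdkn1a and Gadd45a had Pearson r = -0.78 and Spearman rho = -0.73, given as a description because this pair was picked from 36. Without the AB_Implant libraries r was -0.64 over 18, within groups it was -0.67, and without the 3 libraries of the highest length slope -0.81 over 18. Cdkn1a with Gadd45g had r = 0.47, and 0.30 without the AB_Implant libraries. With Gadd45b it had r = 0.12, and -0.15 without the AB_Implant libraries. An unstranded count cannot separate Gadd45a from E230016M11Rik, which overlaps 337 bases of its exons on the other strand, nor Cdkn1a from AC167363.2, which overlaps 273 bases.

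**Figure D3:**
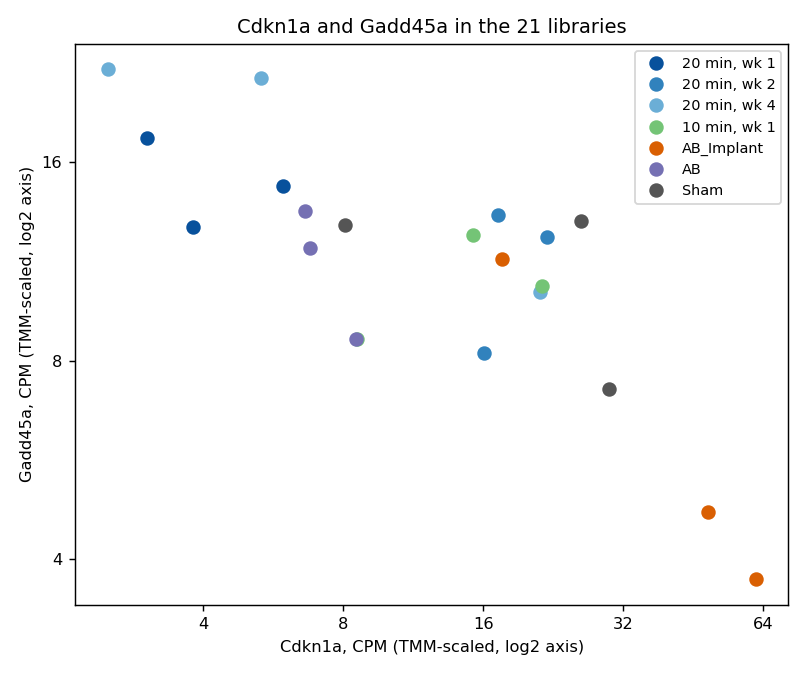
Level of Gadd45a (vertical) against Cdkn1a (horizontal) in the 21 libraries, both in TMM-scaled CPM on log2 axes, coloured by group. Points run from upper left, where AB_LLVNS20min_4w and AB_LLVNS20min_1w libraries lie, to lower right, where AB_Implant replicates 1 and 3 lie (61.7 and 3.73 CPM; 48.7 and 4.72 CPM). AB_LLVNS10min_1w replicate 1 is hidden under AB replicate 1 at 8.5 CPM of Cdkn1a.

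Gadd45b (ENSMUSG00000015312, chr10:80930073-80932204), known as a target of NF-kB and TGF-beta signalling, had its lowest group mean under stimulation from week 2. Its AB_LLVNS20min_2w libraries had 1.94, 4.14 and 5.91 CPM, against 20.0, 8.02 and 8.82 CPM in AB_Implant and 21.4, 5.72 and 3.97 CPM in AB. These did not overlap AB_Implant, as for 3.74% of genes, but overlapped AB. The log2 fold change was -1.63 ± 0.63 against AB_Implant (edgeR adjusted p = 0.765) and -1.39 ± 0.63 against AB (adjusted p = 1.00). Means in the other stimulated groups were 8.16 CPM in AB_LLVNS20min_1w, 8.09 in AB_LLVNS20min_4w and 5.39 in AB_LLVNS10min_1w, and 10.1 CPM in Sham. Averaged over the 4 stimulated groups, Gadd45b stood at -0.89 ± 0.37 against AB_Implant and AB averaged (edgeR adjusted p = 0.953), and 1 library each of AB_Implant and AB, at 20.0 and 21.4 CPM, held the highest values. Without AB replicate 1 the values of Gadd45b were -0.29 for AB_LLVNS20min_2w against AB and -0.33 for the stimulated groups against AB_Implant and AB averaged.

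Gadd45g (ENSMUSG00000021453, chr13:51846678-51848468), which is induced by cytokines as well as by stress, lay higher in every AB_Implant library than in the libraries stimulated from week 1. It had 9.85, 6.85 and 9.57 CPM in AB_LLVNS20min_1w and 7.69, 4.38 and 9.41 CPM in AB_LLVNS10min_1w, against 17.2, 15.7 and 24.0 CPM in AB_Implant. Neither stimulated group overlapped AB_Implant, as for 6.69% and 6.13% of genes. The log2 fold changes were -1.12 ± 0.66 for AB_LLVNS20min_1w (edgeR adjusted p = 0.710) and -1.41 ± 0.67 for AB_LLVNS10min_1w (adjusted p = 0.745). AB libraries had 18.7, 10.5 and 6.02 CPM, so AB replicate 1 lay in the AB_Implant range. Against AB both stimulated groups overlapped. AB_LLVNS20min_1w was at -0.42 ± 0.66 there (edgeR adjusted p = 0.974) and AB_LLVNS10min_1w at -0.71 ± 0.66 (adjusted p = 0.874). Single libraries of AB_LLVNS20min_2w (22.4 CPM), AB_LLVNS20min_4w (26.2 CPM) and Sham (26.1 CPM) reached the AB_Implant range while the other libraries of those groups stayed at or below 9.05 CPM. Gadd45b and Gadd45g had r = 0.61 with each other over the 21 libraries.

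Trp53 itself (ENSMUSG00000059552, chr11:69580359-69591873, plus strand) was not called in any contrast. This says nothing of its protein, the level at which p53 is mainly controlled. It had 15.7, 7.10 and 21.1 CPM in AB_LLVNS20min_1w, 9.62, 17.4 and 19.4 CPM in AB_LLVNS20min_2w and 21.7, 22.5 and 18.5 CPM in AB_LLVNS20min_4w. AB_LLVNS10min_1w had 12.7, 7.70 and 9.41 CPM, AB_Implant 15.1, 13.7 and 12.0 CPM, AB 16.6, 17.4 and 9.49 CPM and Sham 7.06, 15.2 and 15.7 CPM. The AB_LLVNS20min_4w libraries lay above all AB_Implant and all AB libraries, as for 23.2% and 6.44% of genes. The log2 fold changes were 0.62 ± 0.37 against AB_Implant (edgeR adjusted p = 0.254) and 0.53 ± 0.37 against AB (adjusted p = 0.753).

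Mdm2 (ENSMUSG00000020184, chr10:117688875-117710758, minus strand) had 16.7, 27.6 and 13.1 CPM in AB_LLVNS20min_1w, 29.1, 12.8 and 10.7 CPM in AB_LLVNS20min_2w and 7.82, 11.1 and 10.4 CPM in AB_LLVNS20min_4w. AB_LLVNS10min_1w had 11.5, 28.2 and 17.9 CPM, AB_Implant 21.2, 16.03 and 23.5 CPM, AB 16.1, 7.39 and 19.1 CPM and Sham 27.7, 20.0 and 22.6 CPM. The AB_LLVNS20min_4w libraries all lay below AB_Implant, as for 25.6% of genes, at a log2 fold change of -1.05 ± 0.41 (edgeR adjusted p = 0.162). AB lay below Sham in every library, as for 6.98% of genes, at -0.71 ± 0.40 (adjusted p = 0.836).

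Ccng1 (ENSMUSG00000020326, chr11:40748552-40755311, minus strand) was the member with the highest level. It had 103, 242 and 62.9 CPM in AB_LLVNS20min_1w, 278, 69.4 and 88.0 CPM in AB_LLVNS20min_2w and 70.7, 68.9 and 78.7 CPM in AB_LLVNS20min_4w. AB_LLVNS10min_1w had 69.7, 229.7 and 98.8 CPM, AB_Implant 147, 133 and 203 CPM, AB 58.9, 61.9 and 169.9 CPM and Sham 185, 112 and 135 CPM. The libraries that were high for Ccng1 within the stimulated groups were those that were high for Mdm2, and they are the 3 with the highest length slope. AB_LLVNS20min_4w lay below AB_Implant without overlap, as for 25.6% of genes, at -1.15 ± 0.57 (edgeR adjusted p = 0.199).

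The cell death genes did not pass a test in any contrast. Bax (ENSMUSG00000003873, chr7:45461697-45466898, minus strand) ranged from 5.90 to 18.5 CPM, with group means from 15.6 ± 3.29 CPM in AB_LLVNS20min_4w to 9.32 ± 2.80 CPM in AB_LLVNS10min_1w. Its AB_LLVNS10min_1w libraries lay below all AB libraries, as for 5.31% of genes, at -0.58 ± 0.36 (edgeR adjusted p = 0.874). Gm45808 shares 192 bases of exon with Bax on the same strand, and how reads in those bases were assigned was not examined. Bbc3 (ENSMUSG00000002083, chr7:16308393-16318205, plus strand) was near the lower limit of the filter, with 5 to 24 counts and 0.190 to 1.83 CPM a library, and reached 1 CPM in 9 libraries. Its group means lay between 0.595 CPM in AB_LLVNS20min_1w and 1.36 CPM in AB, and counts this low limit what could be detected.

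**Figure D4:**
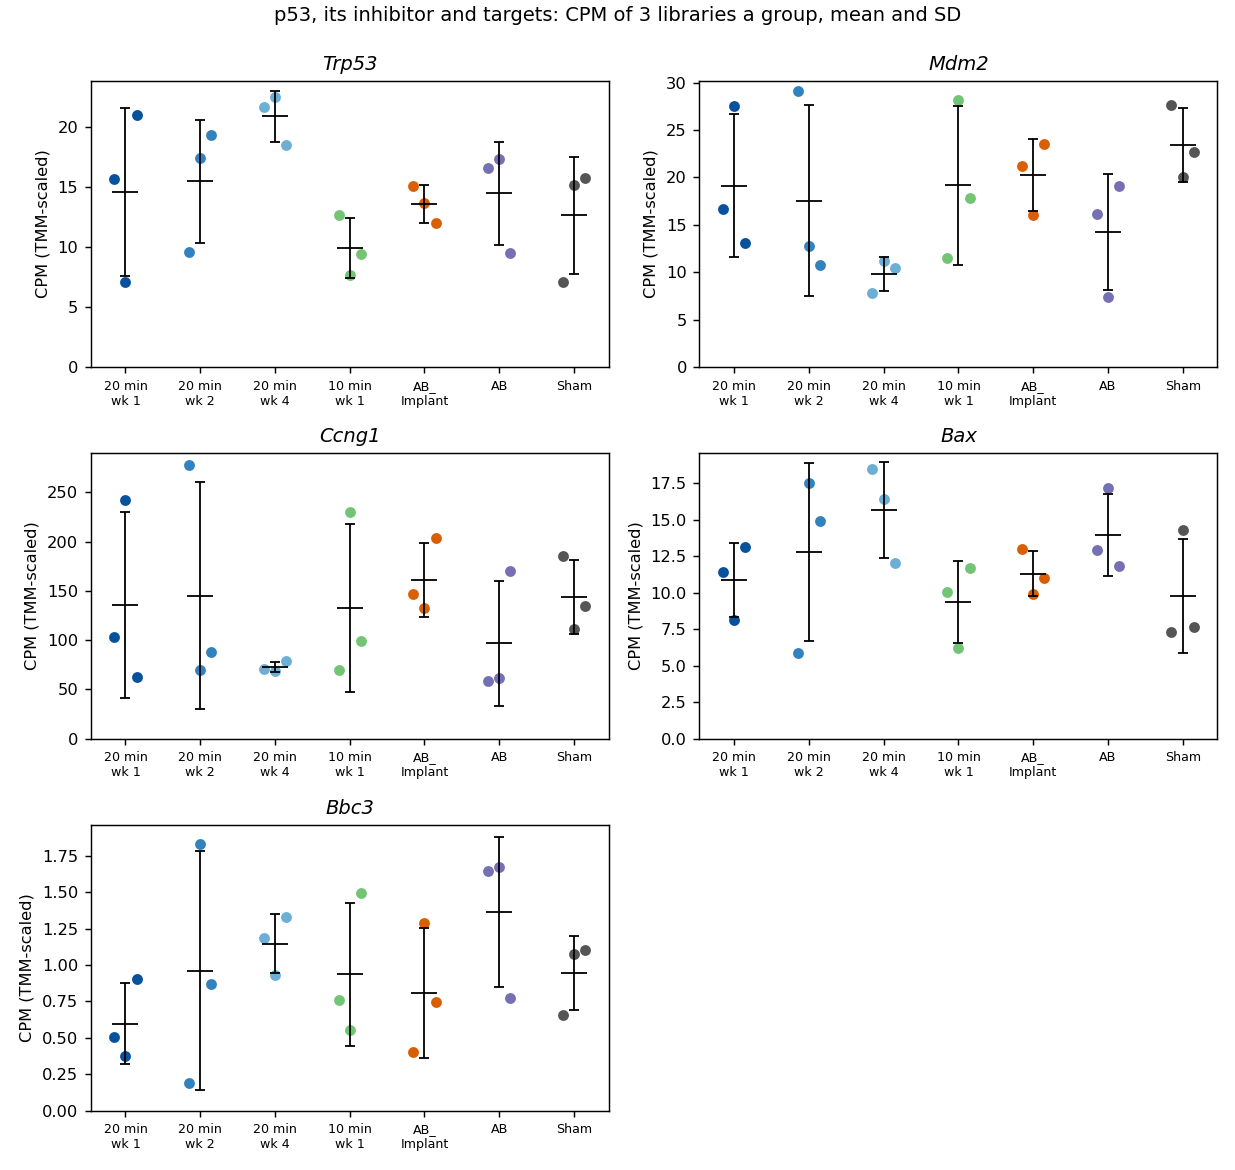
Levels of Trp53, Mdm2, Ccng1, Bax and Bbc3 (TMM-scaled CPM, vertical axes starting at 0) in the 7 groups; dots are libraries, horizontal bars means and error bars the SD of 3 libraries. In AB_LLVNS20min_1w, AB_LLVNS20min_2w and AB_LLVNS10min_1w a single Ccng1 library stands at 242, 278 and 229.7 CPM, and the same libraries are the highest of their groups for Mdm2.

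Per kilobase of exon, mean levels over the 21 libraries were 36.1 CPM for Ccng1, 10.3 for Gadd45g, 7.58 for Bax, 6.78 for Gadd45a, 5.24 for Gadd45b, 4.77 for Cdkn1a, 3.59 for Trp53, 3.47 for Mdm2 and 0.455 for Bbc3. Cdkn1a covered the widest span, with its highest library 24.8 times its lowest, against 3.19 times for Trp53 and 3.93 times for Mdm2. The mean of Cdkn1a was 1.20 CPM per kilobase in AB_LLVNS20min_1w, against 12.0 in AB_Implant and 2.05 in AB.

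A further pattern ran across libraries rather than groups. The length slope of a library is the slope of log2 CPM, centred for each gene, on log2 exon length, and its relation to the log2 level (CPM + 0.5) was computed for all 9 members over 21 libraries. Mdm2 (r = 0.93, rho = 0.94) and Ccng1 (r = 0.93, rho = 0.88) were higher where the slope was higher. Trp53 (r = -0.84, rho = -0.84) and Bax (r = -0.86, rho = -0.85) were lower there. For these 4 the permutation p was 1e-05 by either measure, the smallest that 100000 permutations can give, and 2.25e-05 after adjustment over the 9 relations. Leaving out the 2 libraries whose slope lay farthest from the median gave an r of 0.93 for Mdm2, 0.90 for Ccng1, -0.80 for Trp53 and -0.82 for Bax, and within groups 0.92, 0.93, -0.84 and -0.85 in the same order. Such values are common in these libraries. In the same direction, 4.55% of tested genes followed the slope at least as closely as Mdm2 and 4.95% as Ccng1. For Trp53 the share was 12.1% and for Bax 10.5%. Genes as close in the other direction are left out of these shares.

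Bbc3 followed the slope less closely (r = -0.67, rho = -0.66, adjusted permutation p = 0.00185 and 0.0025; r = -0.50 without the 2 farthest libraries), as did Gadd45a (r = -0.47, rho = -0.51, adjusted permutation p = 0.0442 and 0.0273; r = -0.54 without them). The relation did not pass for Cdkn1a (r = 0.29, rho = 0.27, adjusted permutation p = 0.214 and 0.262), Gadd45b (r = -0.32, rho = -0.24, p = 0.194 and 0.296) or Gadd45g (r = -0.28, rho = -0.34, p = 0.214 and 0.168). Without the 2 farthest libraries r was 0.50 for Cdkn1a. The GC content of each gene's longest transcript was 40.8% in Ccng1 and 46.2% in Mdm2, below the median of 49.9% over tested genes. It was 53.3% in Trp53, 63.5% in Bax and 65.2% in Bbc3. It was also above the median in Cdkn1a (54.4%), Gadd45b (56.9%) and Gadd45g (59.9%), where the relation did not pass, and was 49.8% in Gadd45a. Exon length was 5083 bases in Mdm2, 3512 in Ccng1, 4045 in Trp53, 1576 in Bax and 2124 in Bbc3, beside a median of 4485. It was 3553 in Cdkn1a, 1764 in Gadd45a, 1589 in Gadd45b and 1173 in Gadd45g. Trp53 and its feedback partner Mdm2 had r = -0.78 with each other, and the part of the slope in this was not tested.

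**Figure D5:**
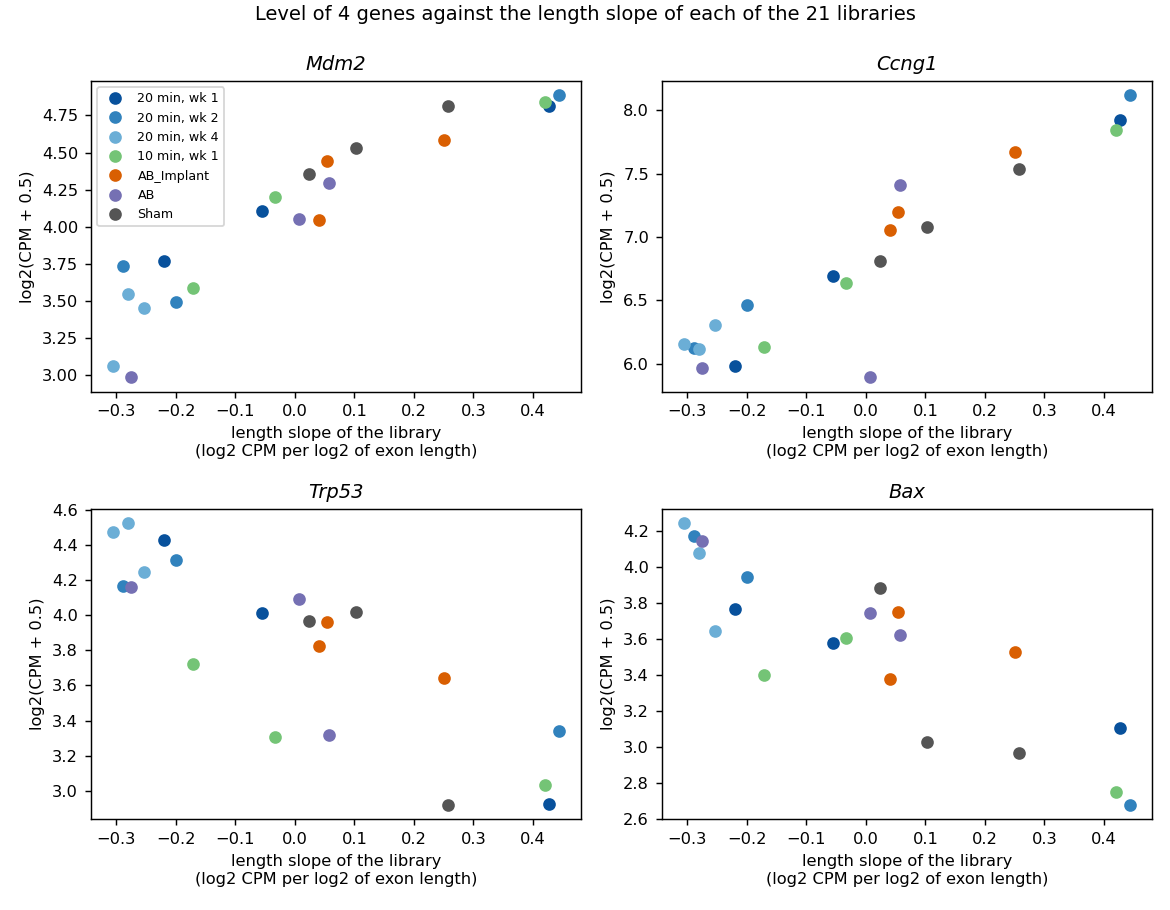
Level of Mdm2, Ccng1, Trp53 and Bax, as log2(CPM + 0.5) on the vertical axes, against the length slope of each of the 21 libraries on the horizontal axes (log2 CPM per log2 of exon length), coloured by group. Mdm2 and Ccng1 run upward (r = 0.93 for both) and Trp53 and Bax downward (r = -0.84 and -0.86), and the 3 libraries at the right end belong to 3 stimulated groups.

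AB_LLVNS20min_4w is the group whose libraries all had low slopes, at -0.253 or below. Against AB_Implant edgeR called 0 of the 9 members, with 3 at an unadjusted p under 0.05 (Cdkn1a, Mdm2 and Gadd45a) beside 26.3% of all genes, and DESeq2 called 2 (Cdkn1a and Gadd45a), beside 3.81% of all genes. With the slope as a covariate the log2 fold change of Mdm2 was -0.27 instead of -1.05, and that of Ccng1 -0.0045 instead of -1.15. Trp53 was at -0.04 instead of 0.62, Cdkn1a at -2.01 (edgeR adjusted p = 0.203) and Gadd45a at 1.18 (adjusted p = 0.187). The slopes of AB_LLVNS20min_4w (-0.305 to -0.253) and AB_Implant (0.0402 to 0.250) did not overlap. Slope and group therefore cannot be told apart in this contrast. Without the 3 libraries of the highest slope, which belong to neither group of this contrast, edgeR called 4 members there, beside 32.2% of all genes. Cdkn1a was at -2.09 (edgeR adjusted p = 0.0140), Gadd45a at 1.52 (0.00792), Mdm2 at -0.98 (0.0129) and Ccng1 at -1.08 (0.0178). With all libraries the fold changes were -2.15, 1.45, -1.05 and -1.15 in the same order. Without AB_LLVNS20min_4w replicate 1, which alone in its group had high Cdkn1a, Cdkn1a was called at -3.45 (adjusted p = 0.0243).

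Other genes of the pathway, taken from 8 lists, were mostly not called. Of 30 other p53 targets 26 were tested, and edgeR called 0 in any contrast. Over their 364 tests 35 had an unadjusted p under 0.05 (9.62%, beside 7.69% over all genes), and DESeq2 called 3, of Gdf15 and Sesn1 (0.836%, beside 0.959%). In AB_LLVNS20min_1w against AB_Implant 3 had an unadjusted p under 0.05, beside 8.77% of all genes, 11 were positive and 15 negative, and the median was -0.05 beside 0.05 over all genes. Those with the smallest p were Gdf15, a stress-induced cytokine (1.22 ± 0.53 CPM in AB_LLVNS20min_1w and 15.5 ± 12.0 CPM in AB_Implant, log2 fold change -3.64 ± 0.99, edgeR adjusted p = 0.154), and the antiproliferative gene Btg2 (5.78 ± 1.33 and 14.5 ± 5.55 CPM, -1.33 ± 0.46, adjusted p = 0.312). In AB_LLVNS20min_4w against AB_Implant 8 of 26 had an unadjusted p under 0.05, beside 26.3% of all genes, and the median was -0.51 beside -0.02 over all genes, with the sestrin Sesn1 smallest (31.6 ± 2.95 and 84.0 ± 14.7 CPM, -1.41 ± 0.34, adjusted p = 0.0796).

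EdgeR also called 0 of 15 tested regulators of p53 protein, 0 of 4 other CDK inhibitors, 0 of 13 cyclins, CDKs and their partners, 0 of 11 BCL2 family genes and 0 of 8 GADD45 partner kinases in any contrast. Over the 14 contrasts the tests at an unadjusted p under 0.05 were 13 of 210, 7 of 56, 8 of 182, 19 of 154 and 5 of 112 in that order, that is 6.19%, 12.5%, 4.4%, 12.3% and 4.46% beside 7.69% over all genes. DESeq2 called 1, of Chek2. In AB_LLVNS20min_1w against AB_Implant, 2, 0, 0, 2 and 1 of these were below that p in the same order. The kinase gene Chek2 stood at 1.10 ± 0.42 there (adjusted p = 0.392), the antiapoptotic Bcl2l1 at -0.86 ± 0.36 (adjusted p = 0.457) and the p38 activator Map2k6 at 1.47 ± 0.61 (adjusted p = 0.456). The other CDK inhibitors did not share the Cdkn1a values: Cdkn1c (p57) was at 0.43 ± 0.37 (adjusted p = 0.899) and Cdkn2c (p18) at 0.51 ± 0.36 (adjusted p = 0.813). The p53 relatives Trp63 and Trp73 did not pass the filter on low counts.

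The list with calls was that of 18 transcription factors other than p53 that act on Cdkn1a or GADD45 genes, all tested. It had 9 edgeR calls over 252 tests (3.57%, beside 0.206% over all genes). Members and lists were chosen with earlier results of these data known, so this share is a description and not a test. In AB_LLVNS20min_1w against AB_Implant 2 were called lower. Cebpb, a stress and inflammatory factor, averaged 0.824 ± 0.704 CPM in AB_LLVNS20min_1w and 39.5 ± 5.11 CPM in AB_Implant (log2 fold change -5.55 ± 0.85, edgeR adjusted p = 0.00453), and Atf3, a stress-induced factor, 1.105 ± 0.269 and 39.2 ± 28.9 CPM (-5.12 ± 1.07, adjusted p = 0.0396). The list had 13 negative of 18 values and a median of -0.64, beside 0.05 over all genes. Cebpb accounted for 7 of the 9 calls. It averaged 2.63 ± 1.64 CPM in AB_LLVNS20min_2w, 10.1 ± 10.7 in AB_LLVNS20min_4w, 48.6 ± 17.4 in AB_LLVNS10min_1w, 41.0 ± 22.4 in AB and 2.44 ± 1.49 in Sham. It was called higher in AB_Implant than in Sham (3.99 ± 0.75, edgeR adjusted p = 0.0376) and lower with 20 min than with 10 min a day from week 1 (-5.86 ± 0.86, edgeR adjusted p = 0.00851). Its order of groups was not that of Cdkn1a, which was low in AB (7.30 CPM) and high in Sham (21.3 CPM). In the mean of the stimulated groups against Sham the called gene was Egr1, an immediate early factor, at -2.71 ± 0.49 (adjusted p = 0.0175).

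Among 7537 genes with a mean of at least 5 CPM, the levels most like that of Cdkn1a over the 21 libraries were Rhoj (r = 0.83), Eln (0.82), Arhgap24 (0.82), Ddit4 (0.81), Ifrd1 (0.80), Med14 (0.80), Fkbp5 (0.80), Agfg1 (0.79), Furin (0.79) and Hnrnpf (0.78), as a description over libraries that share the same length slopes. For the members that follow the slope the values were higher, led by Dmxl1 for Ccng1 (r = 0.98), Msrb3 for Mdm2 (0.96), Efemp2 for Bax (0.94) and Cfl1 for Trp53 (0.94). Gadd45a was most like Mlf1 (0.84), Gadd45b like Elac2 (0.74) and Gadd45g like Actn4 (0.84). No other member was among the leading genes of any member.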

How the data were processed

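Total RNA of left ventricle was sequenced from 21 mice after selection of polyadenylated RNA, per the labels' protocols. The submitters' processing notes name build GRCm38 and, among tools, HISAT2 2.1.0, featureCounts 1.6.0, FastQC 0.11.9, cutadapt 1.11, R 4.0.3 and edgeR 3.32.1. The authors deposited 1 table of counts per gene whose name speaks of normalized counts. Its values were read as raw counts, because 100% were whole numbers and library totals ran from 11577509 to 19414865.

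Symbols, exon lengths and coordinates came from GENCODE M21 on GRCm38 (22118 of 22136 genes matched a symbol). Genes with at least 1 CPM in at least 3 libraries were tested with edgeR 4.0.16 in R 4.3.3 (TMM factors, quasi-likelihood test, 7 groups in 1 model, no covariates). P-values were adjusted by Benjamini-Hochberg over 12100 genes, and genes were called at an adjusted p under 0.05 with no minimum fold. There were 14 contrasts and 2 F tests. Relations with the length slope used 100000 two-sided permutations on log2(CPM + 0.5). Counts were not separated by strand here. Scripts were tested on simulated data.

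The members and lists were chosen with earlier results of these data known. The 9 members were always named; from each list up to 4 called genes a contrast were taken, or the 2 with the smallest p, of which the text gives some, with Gadd45 partners and regulators shown for 1 contrast. The genes of like level were the 10 with the highest r for Cdkn1a and 3 for each other member, of which the text gives the first, and none for Bbc3. Alternatives were DESeq2 1.42.0 and its size factors, a filter at a mean of 5 CPM or more, all genes unfiltered, a replicate block, the length slope as covariate, leaving out the 3 libraries of the highest slope, library sizes without mitochondrial genes, groups compared alone and leaving out each library.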

Additional observations from a re-analysis of the deposited data

How the results depend on the processing

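Of 277 counts of members called under other settings 257 equalled the main count and 20 did not. The main count was 1 in AB_LLVNS20min_1w against AB_Implant and 0 in every other comparison, so most of the equal counts are 0 beside 0. Of 1117 fold changes of members under settings other than leaving out single libraries, 45 turned their sign, none of them called under that setting or at an unadjusted p under 0.05 in the main test; the largest turned was Trp53 in AB_LLVNS20min_4w against AB_Implant (-0.04 with the slope as covariate, against 0.62). With DESeq2 1 member (Cdkn1a) was called in AB_Implant against AB, 2 in AB_LLVNS20min_4w against AB_Implant and 1 over the 7 groups, each against 0 in edgeR, where DESeq2 called 0.655%, 3.81% and 4.47% of all genes. With groups compared alone 0 members were called in AB_LLVNS20min_1w against AB_Implant, against 1, and 5 in AB_LLVNS20min_4w against AB_Implant (Trp53, Mdm2, Ccng1, Cdkn1a and Gadd45a), against 0; 0.132% and 36.4% of all genes were called so. The length slope as covariate gave 1 call over the 7 groups (4.13% of all genes). Without the 3 libraries of the highest slope there were 4 calls in AB_LLVNS20min_4w against AB_Implant, 2 over the 7 groups (Mdm2 and Cdkn1a), 2 for the stimulated groups against Sham (Mdm2 and Ccng1) and 2 against AB_Implant and AB (Ccng1 and Gadd45a), beside 32.2%, 20.3%, 28.8% and 18% of all genes in that order. The causes were not tested. Leaving out each library gave 0 to 2 calls in AB_LLVNS20min_1w against AB_Implant, 0 to 1 in AB_LLVNS20min_4w against AB_Implant and 0 to 1 over the 7 groups; the highest counts came without AB_Implant replicate 2 or AB_LLVNS20min_4w replicate 1.

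Replicate numbers were shared between groups, but same-numbered libraries did not deviate together (median r -0.0454 over 63 pairs, of which 17 exceeded 0.1, and 0.0154 over 126 other pairs). With the replicate block Cdkn1a was at -3.37 in AB_LLVNS20min_1w against AB_Implant (adjusted p = 0.0343), 1 member was called there, and the block changed no member's call; over all genes it called 31 there, against 56 without it. Other counts over all genes in that contrast were 190 with DESeq2, 24 at a mean of at least 5 CPM, 484 with the slope as covariate, 185 without the 3 libraries, 15 with groups alone and 12 to 101 without single libraries. With 3 mice a group only large differences could pass, and Bbc3 had 24 counts or fewer a library.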
